A study of Rattus norvegicus with 2 samples.

Results

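The miRNAs studied here are those linked to inflammation and leukocytes, namely every rat miRNA of the deposited table that belongs to miR-21, miR-142, miR-146, miR-150, miR-155 or miR-223, with any letter or arm. Of 390 miRNAs in the table, 6 met this rule. They were miR-21-5p, miR-142-5p, miR-146a-5p, miR-146b-5p, miR-150-5p and miR-150-3p, and no miRNA of miR-155 or miR-223 was analysed here. The experimental group was male Wistar rats aged 5 months, in which status epilepticus (SE) was induced by electrical stimulation of the right amygdala for 20 min, with hippocampal RNA taken 24 hours later. The control group was male Wistar rats of the same age with the same electrode surgery and sham stimulation. Per the study's methods, the left hippocampus was used, the rats were perfused with ice-cold saline to clear blood from the vessels, and the RNA of each group was pooled into 1 library from a group of 6 rats, without the number of rats per pool being stated. Each group therefore has 1 library, and no difference given here has a replicate check.

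A miRNA is cut from a hairpin precursor whose sides, the 5p and 3p arms, can both give a mature strand of about the same length. Bases 2 to 8 of the mature strand, the seed, pair with target mRNAs. MiR-146a is induced by NF-kB after Toll-like receptor or interleukin-1 signalling and represses the adaptors Irak1 and Traf6, which damps the same pathway, and miR-146b has the same seed. MiR-21 is induced by STAT3 and NF-kB in many injured tissues, reactive glia included. MiR-142 is restricted to blood cells and their relatives such as microglia, and miR-150 is most abundant in mature lymphocytes, where it represses Myb.

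The mature strands show which of these miRNAs can be told apart by their reads and which share a seed. Mature sequences from RefSeq (build GRCr8) were found for 4 of the 6, with the seed in capitals:
rno-miR-21-5p: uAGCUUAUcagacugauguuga
rno-miR-142-5p: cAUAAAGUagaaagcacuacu
rno-miR-146a-5p: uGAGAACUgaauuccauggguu
rno-miR-146b-5p: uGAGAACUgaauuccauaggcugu

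MiR-146a-5p and miR-146b-5p were identical over their first 17 bases and shared the seed GAGAACU. Counted from 1 at the 5′ end, they differed by G18A and U21C (the base of miR-146a first), and miR-146b-5p was longer by 2 bases at the 3′ end. No other mature miRNA of the reference had the seed of miR-21-5p, miR-142-5p or the miR-146 pair. Sequences were found for 297 of the 328 known miRNAs of the table, so that the seeds of the rest were not checked. The GC content was 33.3% in miR-142-5p, 36.4% in miR-21-5p, 40.9% in miR-146a-5p and 41.7% in miR-146b-5p, all below the median of 47.8% over the 297 known miRNAs of the table with a sequence. Lengths were 21 to 24 bases, so that levels of different miRNAs were compared without correction for length.

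The precursors lie apart from each other. In GRCr8, Mir21 is at chr10:71902600-71902691 on the minus strand, next to Vmp1, and Mir142 is at chr10:73055104-73055190 on the plus strand, overlapping Tspoap1 and next to Mpo. Mir146a is at chr10:28349996-28350090 on the minus strand within a long non-coding RNA gene, and Mir146b at chr1:255144860-255144947 on the plus strand, overlapping C1h10orf95. Mir150 lies on chromosome 1. None has another miRNA gene within 10 kb in that annotation. The hairpins of the miR-146 pair, with the counted 5p arm in capitals, place these mature strands in their precursors:
Mir146a: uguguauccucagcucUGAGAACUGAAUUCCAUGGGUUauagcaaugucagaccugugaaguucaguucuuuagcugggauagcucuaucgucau
Mir146b: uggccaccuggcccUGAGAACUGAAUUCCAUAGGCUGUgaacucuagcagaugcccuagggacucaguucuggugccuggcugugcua

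The counts of the table summed to 5678090 in the library after SE, here called the SE library, and 6703056 in the control library. Levels are given as CPM, the counts per 1000000 clean reads of the library, so that 1 count was worth 0.138 CPM after SE and 0.114 CPM in the control. Intervals are 95% exact intervals and cover counting error only. They are Poisson intervals for a level and Clopper-Pearson intervals for a ratio or a share. For an odds ratio, or a difference between log2 ratios, they are exact intervals of the conditional odds ratio. P-values are from two-sided Fisher's exact tests of a count against the remaining clean reads, adjusted by the Benjamini-Hochberg method over all 390 miRNAs, and compare these libraries, not the conditions. Each of the 6 miRNAs reached 30 counts in the library where its count was higher. MiR-150-3p did so in the SE library only, with 59 counts against 19 in the control library. Over the 285 miRNAs that reached 30 counts in either library, the median log2 ratio of the experimental over the control group was 0.10. It was -0.08 with edgeR's TMM normalization and -0.17 without scaling, so that a small log2 ratio has no certain sign. Without scaling every log2 ratio shifted by -0.27, since the control library had more clean reads. The neuronal miR-128-3p was the most abundant of the neuron list, at 29610 CPM after SE and 40551 CPM in the control library.

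The 6 miRNAs covered a wide range of levels, from 2.17 CPM for miR-150-3p in the control library to 540 CPM for miR-146b-5p after SE. MiR-146b-5p and miR-21-5p together held most of the counts. Of the 7117 counts of the 6 after SE, 54.9% were miR-146b-5p and 39.6% miR-21-5p, against 48.5% and 44.1% of 6141 in the control library. MiR-146a-5p and the blood-cell miRNAs miR-142-5p and miR-150 were far lower, with no level above 29.3 CPM. In bulk tissue, fewer cells of a type and less RNA per cell cannot be told apart.

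**Figure D1:**
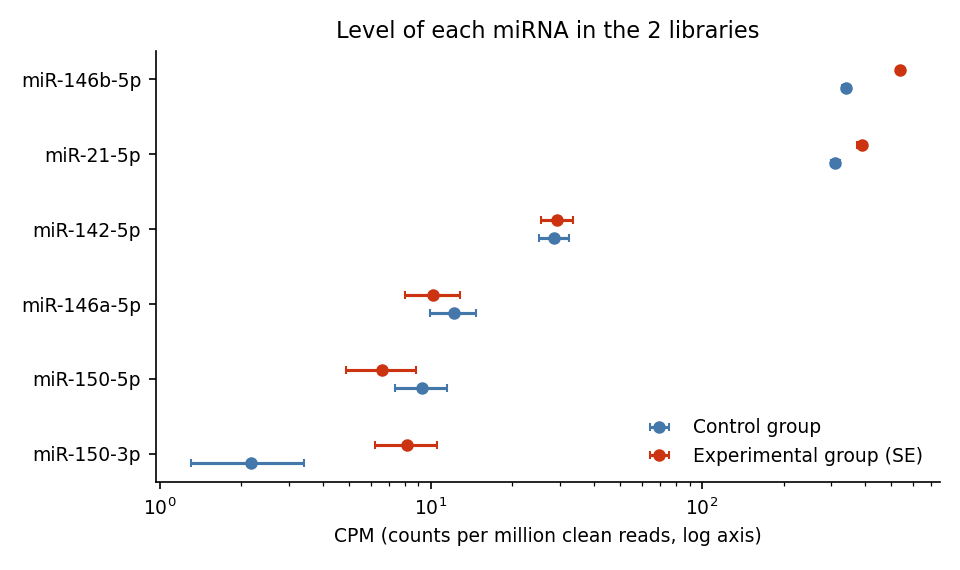
Level of each inflammation and leukocyte miRNA in CPM (log axis) in the control library and the library after SE, with 95% exact Poisson intervals. The intervals of the libraries are apart for miR-146b-5p, miR-21-5p and miR-150-3p and overlap for miR-142-5p, miR-146a-5p and miR-150-5p.

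Between the libraries, 1 of the 6 differed by more than 2-fold. MiR-150-3p was 3.75-fold higher after SE, while miR-146b-5p was 1.58-fold and miR-21-5p 1.25-fold higher, and miR-142-5p, miR-146a-5p and miR-150-5p did not pass the test. A log2 ratio above 1 was found for 10.2% of all miRNAs with at least 30 counts and one below -1 for 2.11%, and 0 of the 6 were below -1. An adjusted Fisher's exact p under 0.05 with a log2 ratio above 0 was found for 3 of the 6, against 34.1% of the whole table. With a log2 ratio below 0 it was found for 0 of the 6, against 18.5%. At an unadjusted p under 0.05 these counts were the same, 3 and 0. The median log2 ratio of the 6 was 0.18, beside 0.10 over all miRNAs, and 3 of the 6 were above that median of all and 3 below it.

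MiR-146a-5p and miR-146b-5p, the pair with a shared seed, differed in level and in log2 ratio. MiR-146b-5p was counted 3908 times in the SE library and 2976 times in the control library, levels of 540 CPM (interval 523 to 557) and 341 CPM (interval 328 to 353) that did not overlap. Its log2 ratio was 0.66 (interval 0.59 to 0.73; Fisher's exact test, adjusted p = 1.77e-79). This was the 55th highest ratio of the 285.

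MiR-146a-5p, the better known member of the pair, was counted 74 times in the SE library and 106 times in the control library. Its levels, 10.2 CPM (interval 8.02 to 12.8) and 12.1 CPM (interval 9.93 to 14.7), overlapped. The log2 ratio was -0.25 (interval -0.70 to 0.19; Fisher's exact test, adjusted p = 0.372) and lay 0.35 below the median of all miRNAs. Without scaling it was -0.52 and passed the test as lower (Fisher's exact test, adjusted p = 0.0400). That value includes the shift of -0.27 from the larger number of clean reads in the control library. Within the libraries, miR-146b-5p had 52.8 times the counts of miR-146a-5p after SE and 28.1 times in the control library, a difference of 0.91 on the log2 scale (interval 0.46 to 1.37) that does not depend on the scaling. Reads under 18 bases were discarded by the authors, so that a read starting at the first base reached the first difference at base 18. Whether their counting allowed mismatches is not given in the sources used here. Summed over the pair, as an alternative chosen after the counts were seen, the log2 ratio was 0.64 (interval 0.57 to 0.71), close to that of miR-146b-5p alone.

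MiR-21-5p, the STAT3- and NF-kB-induced miRNA of reactive glia, was counted 2816 times in the SE library and 2710 times in the control library. Its levels were 389 CPM (interval 375 to 403) and 310 CPM (interval 299 to 322), which did not overlap. The log2 ratio was 0.33 (interval 0.25 to 0.40; Fisher's exact test, adjusted p = 2.94e-16), the 103rd highest of the 285 and 0.23 above the median of all miRNAs. Without scaling the log2 ratio was 0.06 and the Fisher's exact test was no longer passed (adjusted p = 0.229).

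MiR-142-5p, from the haematopoietic miR-142 precursor, was counted 212 times in the SE library and 249 times in the control library. The levels were nearly equal, 29.3 CPM (interval 25.5 to 33.5) and 28.5 CPM (interval 25.1 to 32.3). The log2 ratio was 0.04 (interval -0.23 to 0.31; Fisher's exact test, adjusted p = 0.844), which bounds a ratio of these libraries between 0.851 and 1.24 by counting error alone. Its sign turned with TMM (-0.14), with DESeq2's size factors (-0.05) and without scaling (-0.23).

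**Figure D2:**
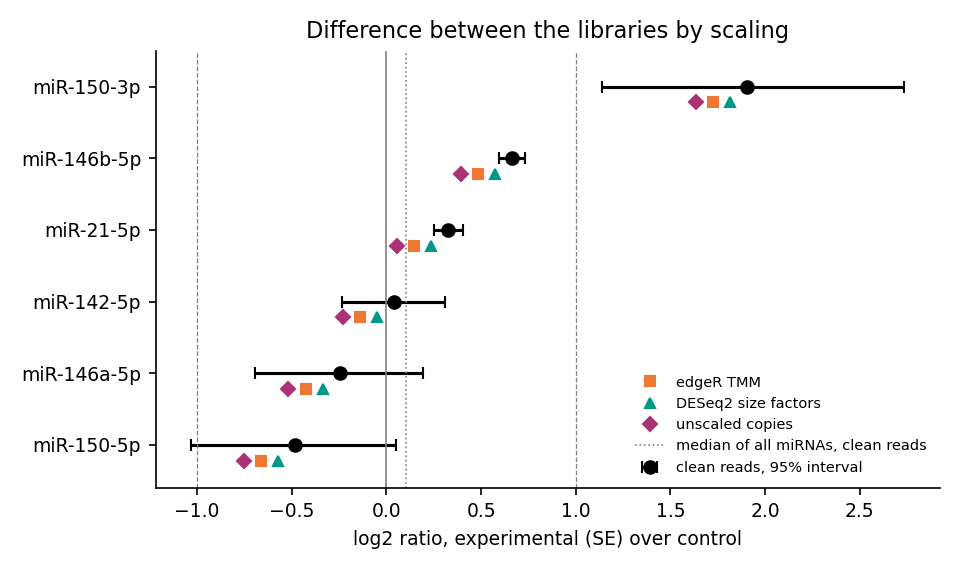
Log2 ratio of the experimental over the control library for each miRNA (black, 95% exact Clopper-Pearson interval with clean reads as depth) and under 3 other scalings (coloured symbols). Solid and dashed lines mark 0 and a log2 ratio of 1 in size, and the dotted line the median of all miRNAs, 0.10. The dotted line applies to clean reads only, as the median was -0.08 with TMM and -0.17 without scaling. MiR-150-3p, miR-146b-5p and miR-21-5p stay above 0 under each scaling, the last by 0.06 without scaling. The sign of miR-142-5p depends on the scaling.

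The arms of miR-150, the lymphocyte miRNA, moved apart. MiR-150-3p was counted 59 times in the SE library and 19 times in the control library, levels of 8.15 CPM (interval 6.20 to 10.5) and 2.17 CPM (interval 1.31 to 3.40) that did not overlap. Its log2 ratio was 1.91 (interval 1.14 to 2.73; Fisher's exact test, adjusted p = 3.15e-07), the 11th highest of the 285. MiR-150-3p was among the 285 through its count in the SE library only. MiR-150-5p, from the other side of the same hairpin, had 48 and 81 counts, 6.63 CPM (interval 4.89 to 8.79) and 9.27 CPM (interval 7.36 to 11.5), which overlapped. Its log2 ratio was -0.48 (interval -1.03 to 0.05; Fisher's exact test, adjusted p = 0.132), the 29th lowest of the 285. It passed the test as lower with TMM (log2 ratio -0.66, adjusted p = 0.0272) and without scaling (-0.75, adjusted p = 0.0104).

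Of the reads of the miR-150 precursor, the 3p arm took 55.1% in the SE library (interval 45.2 to 64.8), against 19.0% among those of the control library (interval 11.8 to 28.1). The 5p arm was thus the more abundant in the control library, and the 3p arm had the higher count in the library after SE, where the interval includes equal shares. The odds of the 3p arm were 5.20 times as high after SE (interval 2.69 to 10.4; arm against library by Fisher's exact test, p = 7.82e-08, adjusted over the 88 precursors with both arms in the table p = 8.61e-07). This comparison does not depend on the scaling. Both arms summed, an alternative chosen after the counts were seen, gave 107 and 100 counts, and their log2 ratio was 0.37 (interval -0.04 to 0.78).

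Arms moved apart in other precursors of the table as well. Of the 55 precursors whose arms each reached 30 counts in either library, 10 (18.2%) had a log2 odds ratio beyond 1 in size. Among these 55, that of miR-150, at 2.38 (interval 1.43 to 3.38), was the 3rd in size after miR-345 and miR-365. It was the 5th in size over all 88 precursors with both arms in the table, with no minimum of counts. The 3p arm of miR-150 reached 30 counts in the SE library only. MiR-150 thus entered these 55 through the library where that arm was higher. In 6 of the 55, miR-150 among them, a different arm had more counts in each library. No 3p row of miR-21, miR-142, miR-146a or miR-146b was analysed here, so that arms could be compared for miR-150 only.

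**Figure D3:**
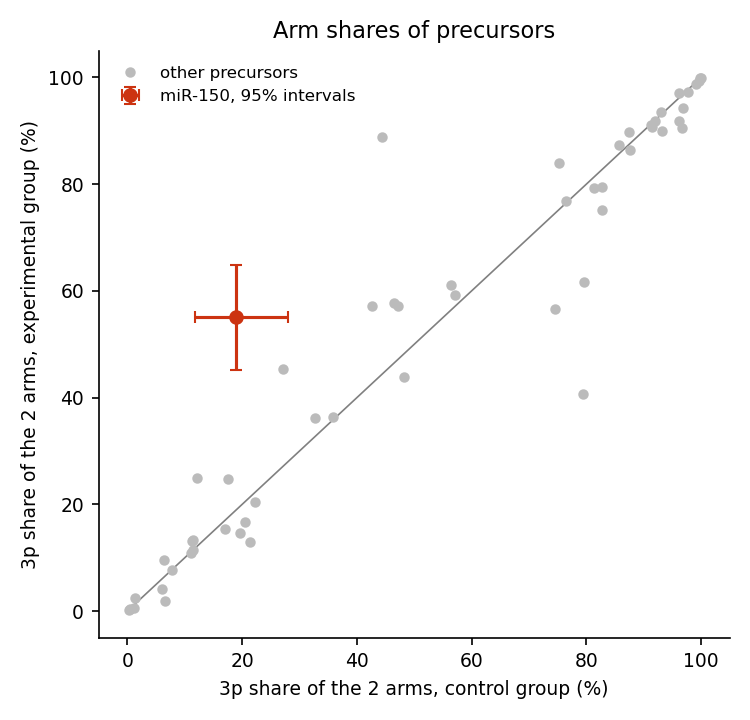
Share of the 3p arm in the reads of both arms (%) in the control library and in the library after SE, for the 55 precursors with at least 30 counts in either library for each arm. The line marks equal shares, and miR-150 lies above it with 55.1% after SE and 19.0% in the control library (bars are 95% exact Clopper-Pearson intervals).

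Set against each other within the libraries, which removes the scaling, the 6 miRNAs were ordered by log2 ratio. The intervals of 12 of their 15 pairwise differences in log2 ratio excluded 0. These intervals cover counting error only, are not adjusted for the 15 comparisons, and are narrower for abundant miRNAs. The share over other pairs of miRNAs was not computed, so that 12 of 15 is not a trait of these miRNAs. MiR-150-3p stood above each of the other 5, by 1.24 (interval 0.47 to 2.07) over miR-146b-5p and by 2.38 (interval 1.43 to 3.38) over miR-150-5p. MiR-146b-5p followed, 0.34 (interval 0.23 to 0.44) above miR-21-5p. MiR-21-5p was 0.29 above miR-142-5p, with an interval that nearly reached 0 (0.01 to 0.57). MiR-142-5p, miR-146a-5p and miR-150-5p could not be told apart, the widest difference being 0.52 (interval -0.08 to 1.14) between miR-142-5p and miR-150-5p.

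**Figure D4:**
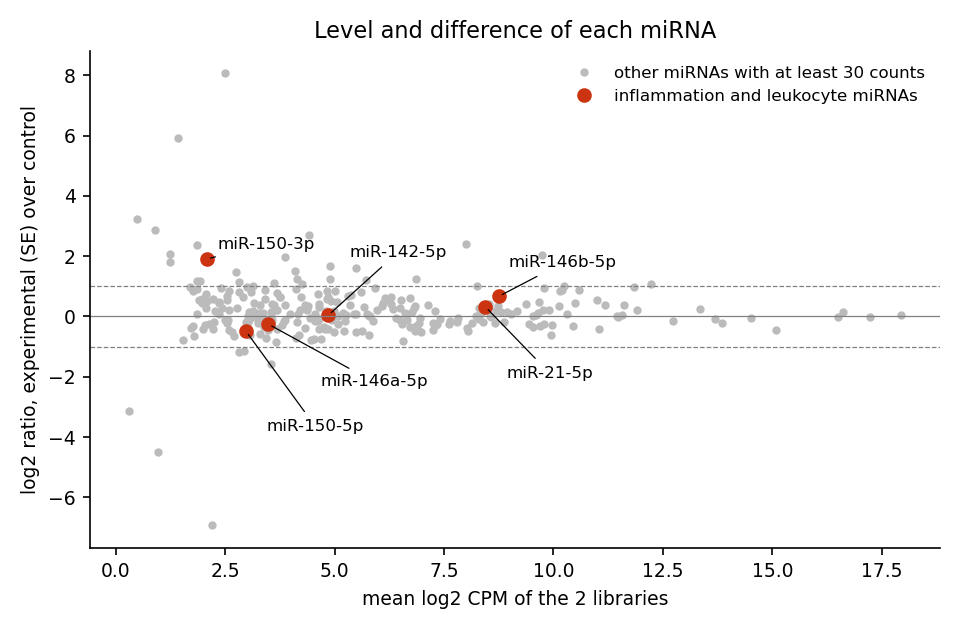
Log2 ratio of the experimental over the control library against the mean log2 CPM of both, for the 285 miRNAs with at least 30 counts in either library. The inflammation and leukocyte miRNAs are in red, and of these miR-150-3p alone lies beyond the dashed lines at a log2 ratio of 1 in size.

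The known miRNAs nearest to each of the 6 in the plane of the log2 CPM of both libraries are listed to place them in the table. For miR-146b-5p these were miR-448-3p and miR-664-2-5p, and for miR-21-5p they were miR-1224 and miR-139-3p. MiR-142-5p was nearest to miR-128-2-5p and miR-22-5p, miR-146a-5p to miR-411-3p and miR-325-5p, and miR-150-5p to miR-138-1-3p and miR-345-5p. These 10 lay within a distance of 0.35 log2 units. MiR-150-3p had no such close neighbour, with miR-365-5p at 0.44 and miR-219-1-3p at 0.57. Likeness here rests on 2 libraries only.

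Other miRNAs linked to inflammatory signalling had both higher and lower counts after SE, as had the table as a whole. The list held miR-9, miR-19, miR-31, miR-124, miR-125, miR-132, miR-181, miR-199, miR-203, miR-221, miR-222 and miR-301, of which 24 rows were in the table and 21 reached 30 counts, with no row of miR-9, miR-31 or miR-203 analysed here. Their median log2 ratio was 0.16, beside 0.10 over all miRNAs, and 2 were above 1 (0 with TMM or without scaling) and 1 below -1, against 10.2% and 2.11% of all miRNAs with at least 30 counts. MiR-124-3p, which is abundant in neurons and keeps microglia quiescent, was counted 50380 times in the SE library and 28500 times in the control library, a log2 ratio of 1.09. MiR-181d-5p, of the miR-181 family that represses Tnf family cytokines, had 3144 and 1875 counts and thus a log2 ratio of 1.02. MiR-125a-3p had 34 and 92 counts and thus a log2 ratio of -1.17. The next most abundant of the list after miR-124-3p were miR-221-3p, with 26020 and 24168 counts and a log2 ratio of 0.38, and miR-181a-5p, with 15063 and 9845 counts and a log2 ratio of 0.88. Of the 24, 11 had an adjusted Fisher's exact p under 0.05 and a log2 ratio above 0, and 6 such a p and a log2 ratio below 0. Over the whole table these shares were 34.1% and 18.5%.

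Markers of other cells were read beside these values, since leukocyte miRNAs can come from blood left in the vessels. The erythrocyte list (miR-451, miR-144 and miR-486) had 3 rows in the table, with no row of miR-486 analysed here. MiR-451-5p, the main miRNA of red cells, was counted 196 times in the SE library and 100 times in the control library, 27.1 and 11.4 CPM, and its log2 ratio was 1.24 (interval 0.89 to 1.60; Fisher's exact test, adjusted p = 3.03e-12). MiR-144-5p, from the same transcript, had 16 and 5 counts and thus a log2 ratio of 1.95, and miR-144-3p had 12 and 14 counts and thus a log2 ratio of 0.05. The summed level of the list was 30.9 CPM after SE and 13.6 in the control library. The erythrocyte list was thus higher in the same library as miR-150-3p, while the blood-cell miRNAs miR-142-5p and miR-150-5p had log2 ratios of 0.04 and -0.48, and its part in the difference of miR-150-3p was not tested.

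The other lists held no marker at 0. The smooth muscle and pericyte list (miR-143 and miR-145) summed to 194 CPM after SE and 170 in the control library, with 0 of 2 miRNAs of at least 30 counts beyond a log2 ratio of 1 in size. MiR-143-3p, its most abundant, had a log2 ratio of 0.18 and miR-145-5p one of 0.23. The oligodendrocyte list (miR-219 and miR-338) summed to 1577 and 1604 CPM, with miR-219-2-3p at a log2 ratio of 0.07, miR-219-5p at -0.48 and miR-338-3p at 0.07. Its 2 least abundant rows lay further out, miR-219-1-3p at 1.17 (41 and 22 counts; Fisher's exact test, adjusted p = 0.00477) and miR-338-5p at -0.72 (61 and 121 counts; Fisher's exact test, adjusted p = 0.00312). The neuron list (miR-124, miR-128, miR-137 and miR-138) summed to 37665 and 44612 CPM, with log2 ratios of -0.45 for miR-128-3p, 1.09 for miR-124-3p and 0.46 for miR-138-5p. The lower sum after SE came from miR-128-3p, while 6 of the 8 neuron miRNAs with at least 30 counts had a log2 ratio above 0 and their median was 0.47. The others ranged from -0.52 for miR-138-1-3p to 0.61 for miR-137-3p. No row of miR-126, the endothelial marker, was analysed here.

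**Figure D5:**
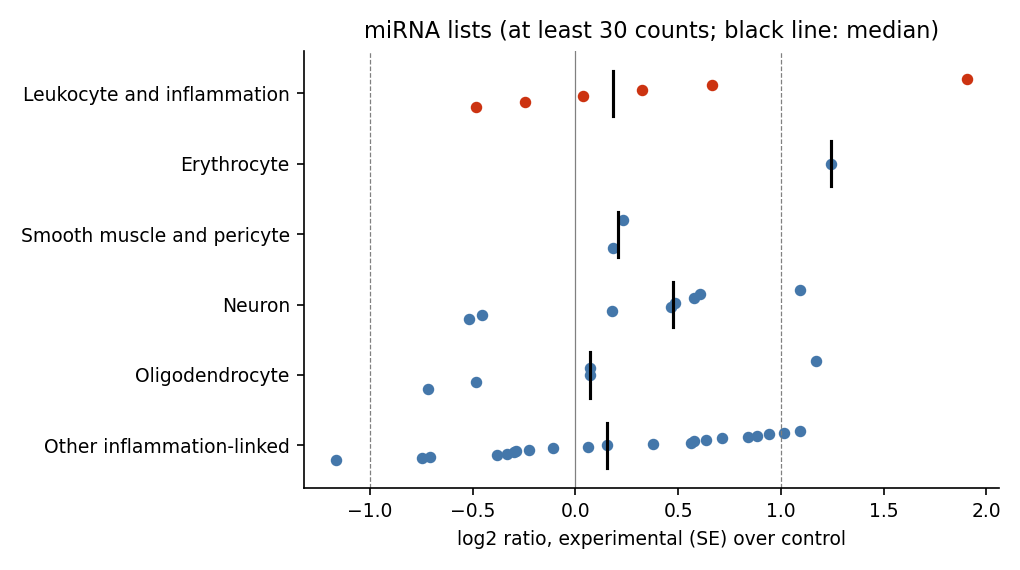
Log2 ratio of the experimental over the control library for the miRNAs of each list with at least 30 counts in either library (points), with the median of the list as a black line and dashed lines at 1 in size. The inflammation and leukocyte miRNAs (red) spread from -0.48 to 1.91, and the erythrocyte list is represented by miR-451-5p alone.

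The tests above take counting error as the only variation. When a coefficient of variation of 0.2 between pooled libraries of a group was assumed in edgeR's exact test, only miR-150-3p of the 6 passed (adjusted p = 0.0124), and with 0.4 none of the 6 passed (edgeR's exact test, miR-150-3p adjusted p = 0.423, unadjusted p = 0.0445).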

How the data were processed

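Small RNA of pooled rat hippocampal RNA was sequenced in 2 libraries. The authors filtered out reads of low quality, under the length minimum or seen once, and deposited unscaled read counts, in whole numbers, for each miRNA. The submitters' processing notes name the build rn5, and the aligner is not given in the sources used here. The authors also deposited p-values of their own comparison, which were not used. The labels describe a cRNA preparation, and the paper's description of small RNA libraries was followed. Counts were divided by the clean reads the study gives for each library, of which the counts of the table make up 78.4% after SE and 76.7% in the control. Counts under 3 were set to 3 before a ratio. Calls by size required at least 30 counts in either library and a log2 ratio beyond 1 in size. Fisher's exact tests were adjusted by the Benjamini-Hochberg method, and the tests were checked on simulated data. The simulation held counting error only, so it cannot show how the tests behave with variation between animals or libraries.

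Named were all miRNAs of the rule, those sharing a seed, the 2 nearest in level to each, and the 3 most abundant of each list, and in addition list members beyond a log2 ratio of 1 and miR-144, chosen after their values were seen. The miRNAs and lists were chosen with earlier results of these data known. Alternatives were a pseudocount of 1, other scalings (table sums, none, TMM, DESeq2's size factors), a log2 ratio beyond 2, known miRNAs only, a minimum of 10 counts, of 100 or none, the Audic-Claverie test, unadjusted p, 0.5 added to the arm counts, and an exact test in edgeR that assumes a coefficient of variation of 0.2 or 0.4. Sequences, positions and neighbours come from RefSeq (GRCr8). Tests were run in R 4.3.3 with edgeR 4.0.16 and DESeq2 1.42.0 and in Python 3.11.15 with scipy 1.17.1.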

Additional observations from a re-analysis of the deposited data

How the results depend on the processing

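No paired analysis was possible because both groups hold a single library, and none could be left out. Log2 ratios of the 6 miRNAs shift alike with the scaling. Without scaling the log2 ratio of miR-142-5p turned to -0.23, that of miR-21-5p fell short of the Fisher test at 0.055, and those of miR-146a-5p (-0.52) and miR-150-5p (-0.75) passed as lower, 2 of the 6. With TMM miR-142-5p turned to -0.14 and miR-150-5p passed at -0.66, 1 of the 6. With DESeq2's size factors miR-142-5p turned to -0.052. The log2 ratio of miR-150-3p lay between 1.63 and 1.91 and that of miR-146b-5p between 0.39 and 0.66 over the scalings and a pseudocount of 1. The share of higher calls in the whole table was 64.9% with clean reads, 49.5% with TMM and 39.3% without scaling (equal totals). Adding 0.5 to each arm count changed the log2 odds ratio of miR-150 to 2.36.

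Past a log2 ratio of 1, 1 of the 6 became 0 with a minimum of 100 counts or a log2 ratio beyond 2, by construction. By the test, the 3 higher miRNAs became 1 with an assumed coefficient of variation of 0.2 and 0 with 0.4. Summing the miR-146 pair gave 0.64 and summing the miR-150 arms 0.37, which turned the sign of miR-146a-5p and miR-150-5p and ended the call of miR-150-3p (both chosen after seeing the data). Of the other inflammation-linked miRNAs, 2 higher became 1 with table sums or DESeq2's size factors, 0 with TMM, no scaling or a log2 ratio beyond 2, and 4 with a minimum of 10 counts or none. The 1 lower became 2 without scaling and with a minimum of 10 or no counts, and 0 with a minimum of 100 or a log2 ratio beyond 2. Of the cell type markers, 3 higher became 1 with TMM and 0 without scaling or with a log2 ratio beyond 2. MiR-124-3p was counted among these 3 and among the 2 higher inflammation-linked miRNAs, since both lists hold miR-124. Depth limits miR-150 most, with 19 counts of its 3p arm in the control group.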
